A study of Sus scrofa with 6 samples.

Results

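The early response of growth plate chondrocytes to isolation and culture was described by comparing porcine growth plate cartilage taken as native tissue with chondrocytes from the same kind of cartilage at day 10 of culture. The comparison rests on 2 of the 6 arrays of the series, chosen by their labels, with 1 array per condition. The native array held RNA of whole growth plate cartilage. The day 10 array held RNA of primary chondrocytes that had been released from growth plate cartilage with collagenase and then kept in DMEM/Ham's F12 medium with fetal bovine serum and antibiotics and no other supplement, under 5% oxygen with 5% carbon dioxide, at 37 °C. The labels call this time day 10 of differentiation, and a day 20 culture of the same kind was also measured. The other 3 arrays covered articular cartilage, the cartilage of the joint surface. Native tissue was on 1 of them, and the rest held chondrocyte cultures from that kind of cartilage, for day 10 and for day 20. Temperature, oxygen and carbon dioxide were the same as for the growth plate cultures. The labels do not say whether the cultured cells came from the same animals as the native tissue, or whether animals were pooled, so differences between animals and the response to culture cannot be told apart.

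The growth plate is the layer of cartilage at which long bones lengthen. Its chondrocytes divide in columns, stop dividing and become hypertrophic, secrete collagen X and prepare their matrix for mineral, and Indian hedgehog from the prehypertrophic cells and parathyroid hormone-related protein set the pace of this sequence. The tissue has no blood vessels and little oxygen, and its cells are embedded in a matrix of collagen II and aggrecan. Chondrocytes freed from that matrix and grown in serum are known to spread, to divide and, with time, to lose cartilage gene expression.

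Values are signal intensities of probe sets, the groups of probes that stand for a transcript, and all 6 arrays had the same trimmed mean signal of 400.1. The highest signals of the growth plate arrays were 19960 and 20084. Signals under a floor of 36.1 were raised to it, and 5598 genes were compared, of which 5162 lay above the floor on both growth plate arrays, 148 on the native array alone, 165 on the day 10 array alone and 123 on neither. The median log2 ratio of day 10 over native was 0.03, and the middle 50% of genes lay between -0.36 and 0.45. With single arrays there was no test, and the number of arrays limits the precision. A fold in the text is written "at least" where the lower array lay at the floor.

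The only measure of error within the 2 arrays was how far separate probe sets of 1 gene differed. Among 1212 genes with a second probe set above the floor on both arrays, the log2 ratios of the pair differed by a median of 0.40, and the SD of the difference was 0.69. Of the 70 such genes at least 2-fold higher at day 10, the second probe set was also at least 2-fold higher for 25 and of opposite sign for 11. Of the 79 such genes at least 2-fold lower, it was also at least 2-fold lower for 25 and of opposite sign for 23. A 2-fold difference of 1 gene is therefore within the disagreement that many probe set pairs showed, and the second probe set is given below for genes past 2-fold where it lay above the floor and did not go at least 2-fold the same way.

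**Figure D1:**
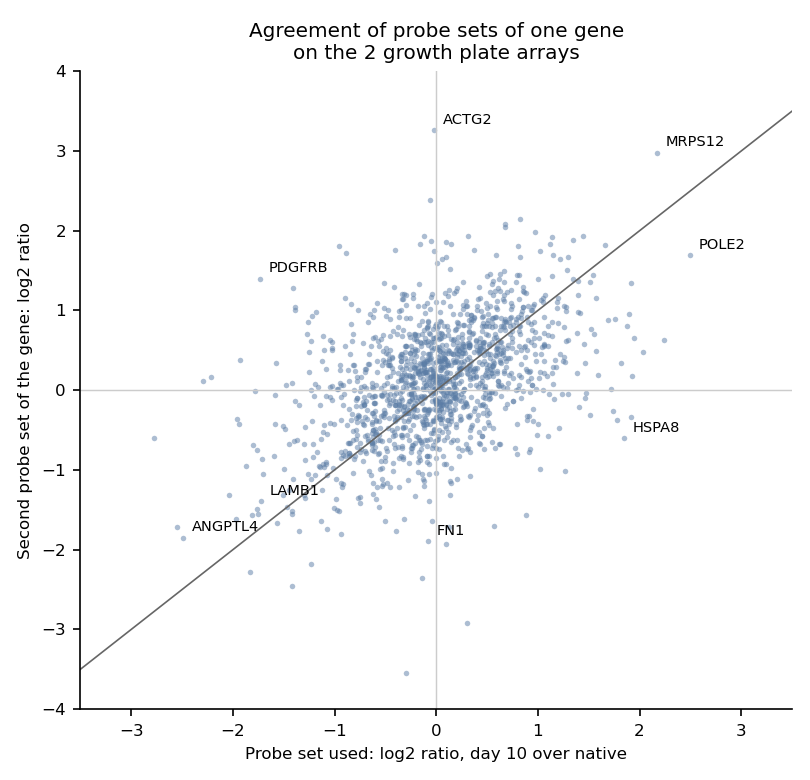
Log2 ratio of signals, day 10 over native growth plate, for the probe set used (horizontal axis) and for the second probe set of the same gene (vertical axis). Each point is 1 gene whose second probe set lay above the floor on at least 1 array, and the diagonal marks equal ratios. POLE2, MRPS12, ANGPTL4 and LAMB1 lie at least 2-fold the same way on both, whereas HSPA8 and PDGFRB have ratios of opposite sign.

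Between native tissue and day 10, 24 genes (0.429% of those compared) were at least 4-fold higher in culture and 55 (0.982%) were at least 4-fold lower. At 2-fold, 415 genes (7.41%) were higher and 384 (6.86%) lower. These shares are the background for every list count below, and the counts of several lists lie near them. Of the 4-fold genes, 22 of the higher and 48 of the lower lay above the floor on both arrays. The 4-fold counts depended on how low signals were treated. A floor at the 25th or the 60th percentile gave 43 or 9 genes higher, a pseudocount in place of the floor gave 8 higher and 31 lower, and the 60th percentile gave 30 lower.

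**Figure D2:**
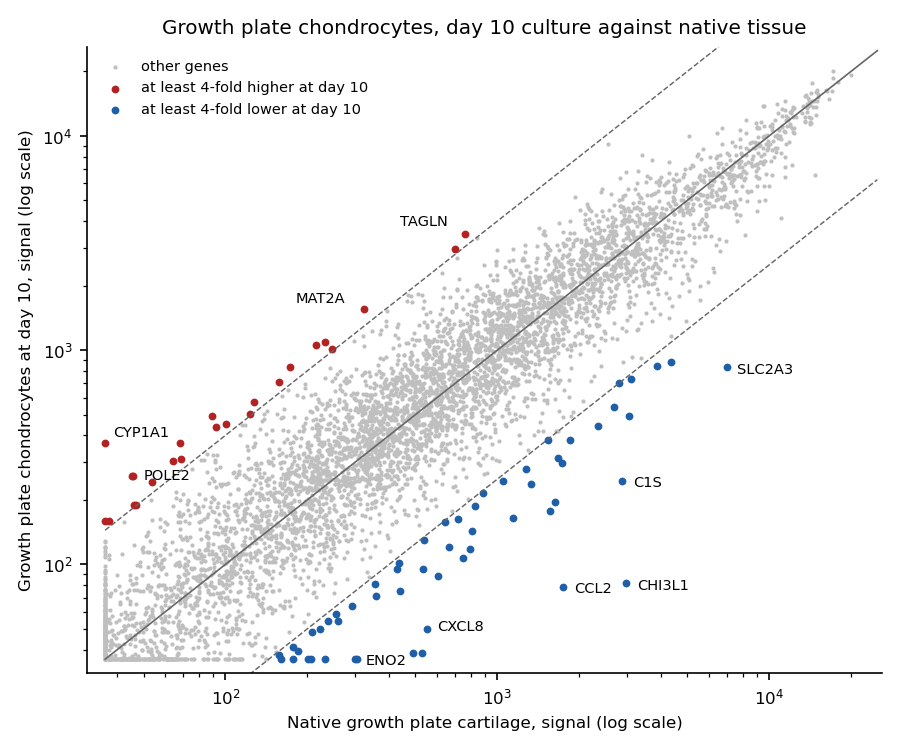
Signal of each gene in native growth plate cartilage (horizontal axis) and in growth plate chondrocytes at day 10 (vertical axis), both on log scales, with signals under the floor of 36.1 drawn at it. The solid line marks equal signals and the dashed lines 4-fold differences. The 55 genes below the lower line, led by CHI3L1 and CCL2, outnumber the 24 above the upper line, of which CYP1A1 lies farthest out.

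The largest difference upward was that of CYP1A1, a monooxygenase that is the classical target of the aryl hydrocarbon receptor. Its signal was 32.9 on the native array and 367 on the day 10 array, at least 10.2-fold higher, and on the day 20 array it was 43.5. ARNT2, a dimerisation partner of receptors of that family, had signals of 53.5 and 241 and was 4.51-fold higher. SELENOP, which encodes the secreted selenium carrier selenoprotein P, had signals of 45.4 and 259, a 5.69-fold difference. MAT2A, the enzyme that makes the methyl donor S-adenosylmethionine, stood at 324 and 1556 and was back at 421 on the day 20 array. TAGLN, the actin-binding smooth muscle protein transgelin, had signals of 758 and 3483 and was 4.60-fold higher. It was higher again on the day 20 array, at 6398. With the floor raised to the 60th percentile, a signal of 135.9, the log2 ratios of SELENOP, POLE2 and ARNT2 dropped to 0.93, 0.93 and 0.83, since their native signals lie below that floor.

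The other leading genes had no single role in common. ENC1, an actin-associated adaptor, was 5.51-fold higher with signals of 89.2 and 492. ZFAND2A, a stress-inducible zinc finger protein, was 5.43-fold higher (67.8 and 368). CLDN6, a tight junction claudin, was 4.71-fold higher (64.4 and 303). HTRA4, a serine protease, was 4.53-fold higher (68.4 and 309.7). PIP4K2C and ARMT1 were 4.94-fold and 4.82-fold higher. ELOF1, a transcription elongation factor, was 4.70-fold higher. FBXO31, a ubiquitin ligase subunit, was 4.72-fold higher by 1 probe set and had a log2 ratio of 0.63 by the other. HOPX, an atypical homeodomain protein, was 4.50-fold higher, with signals of 101 and 453. Both measured probe sets of MRPS12, a protein of the mitochondrial ribosome, were higher, with log2 ratios of 2.17 and 2.98.

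Downward, the largest difference was that of CHI3L1, a secreted glycoprotein of stimulated chondrocytes, whose signal was 2984 on the native array and 81.6 on the day 10 array, 36.6-fold lower. It remained low on the day 20 array, at 89.3. CCL2, the monocyte-attracting chemokine, had signals of 1750 and 78.8 and was 22.2-fold lower. SERPINA1, which encodes the protease inhibitor alpha-1-antitrypsin, had signals of 528 and 38.7, a 13.6-fold difference. The complement proteases C1S and C1R moved together. C1S had signals of 2886 and 246 and was 11.7-fold lower, and C1R had signals of 1561 and 177 and was 8.80-fold lower. On the day 20 array their signals were 2321 and 1091, nearer to the native array than to day 10. FBXO32, the ubiquitin ligase subunit atrogin-1, was 6.86-fold lower by 1 probe set, while its second gave a log2 ratio of -0.60. An unnamed locus, LOC100523870, was 12.7-fold lower, and C1H15orf48 was at least 8.45-fold lower.

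Genes of the hyaline cartilage matrix differed little at day 10. None of the 7 measured members of that list, of 23 listed, passed 2-fold in either direction, and the median log2 ratio was -0.25 beside 0.03 for all genes. All 7 ratios were negative, from -0.98 to -0.02. COL2A1, the collagen II chain, had signals of 1615 on the native array and 1361 on the day 10 array. ACAN, the proteoglycan aggrecan, had 14874 and 12466. HAPLN1, the link protein that holds aggrecan to hyaluronan, had 14120 and 13922, and COMP, a pentameric matrix protein, had 5152 and 5098. The signals of these 4 genes thus lay within 1.19-fold of the native array. ACAN and HAPLN1 lay in the upper part of the signal range, and whether ratios are compressed there was not tested. COL11A1, the collagen XI chain of the thin cartilage fibril, had the lowest ratio at 1089 and 553, just under 2-fold.

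The transcription factors of chondrocytes were measured for 8 of 15 listed genes. Of these 0 were higher and 1 at least 2-fold lower, beside 7.41% and 6.86% of all genes. The median log2 ratio was -0.58. All 8 ratios were negative. The one past 2-fold was EPAS1, which encodes the hypoxia-inducible factor HIF-2α, with signals of 332 and 92.5 and a 3.59-fold difference. SOX9, the master regulator of chondrocyte identity, had signals of 175 and 125 and a log2 ratio of -0.49. HIF1A, the other hypoxia-inducible factor, had signals of 10962 and 9984 by the probe set used, whereas its second gave a log2 ratio of -1.11.

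Some markers of hypertrophy and mineral formation were higher at day 10. Of 12 measured genes of that list, of 22 listed, 5 passed 2-fold upward and 0 downward while 7 lay under 2-fold, 9 ratios were positive and 3 negative, and the median log2 ratio was 0.62. IHH, the hedgehog ligand of prehypertrophic cells, had signals of 118 on the native array and 448 on the day 10 array, 3.80-fold higher, and 82.1 on the day 20 array. The second IHH probe set gave a log2 ratio of only 0.18. PHOSPHO1, the phosphatase that starts mineral formation inside matrix vesicles, had signals of 488 and 1684 and 306 in the same order. Both genes were therefore highest on the day 10 array of the 3 growth plate arrays. MMP13, the collagenase of late hypertrophic cartilage, had signals of 91.2 and 299.7, 3.29-fold higher, and 513 on the day 20 array. Its second probe set lay at the floor on both arrays.

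COL10A1, the collagen X chain of hypertrophic cells, had signals of 1114 and 2375 and was 2.13-fold higher. ALPL, the alkaline phosphatase that supplies phosphate for mineral, had signals of 1522 and 3057, a 2.01-fold difference. Other members lay under 2-fold. IBSP, bone sialoprotein, had 10642 and 14034, and SPP1, osteopontin, had 14127 and 11654. PTH1R, the receptor for parathyroid hormone-related protein, had 3431 and 4864. BGLAP, osteocalcin, was the member with the lowest ratio, at 60.3 and 27.1, close to the floor on both arrays. Whole growth plate cartilage holds all zones, and in bulk RNA fewer cells of a type and less RNA per cell cannot be told apart.

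**Figure D3:**
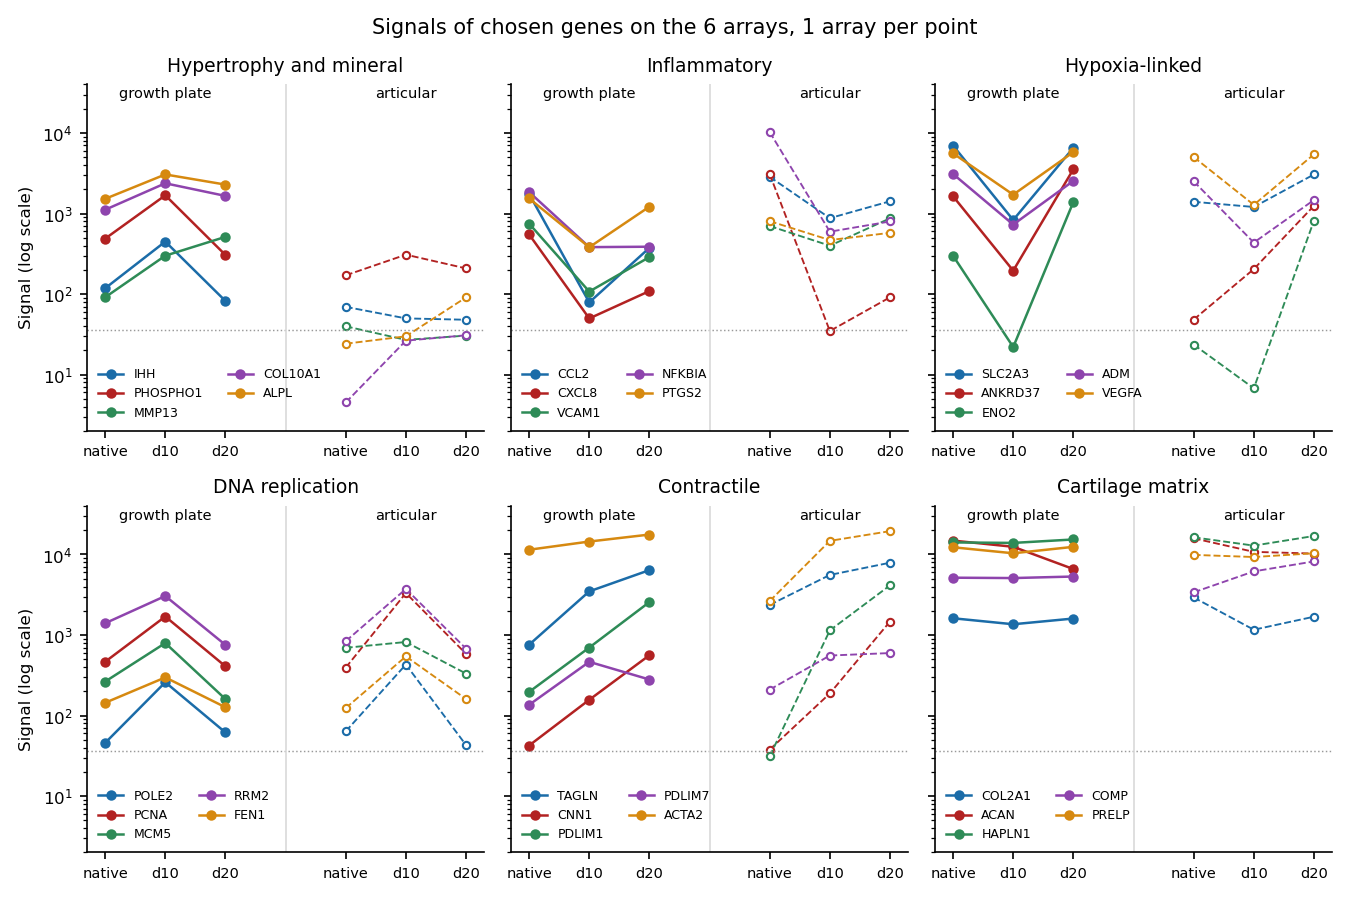
Signals, on a log scale, of 5 genes from each of 6 groups on the 6 arrays (native, day 10 and day 20; filled points and solid lines for growth plate, open points and dashed lines for articular). Each point is 1 array, and the dotted line is the floor of 36.1. On the growth plate arrays the inflammatory and hypoxia-linked genes shown are lower at day 10 than in native tissue, the DNA replication genes peak there, and COL2A1, HAPLN1, COMP and PRELP stay nearly level.

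Growth factor signalling was measured sparsely. Of the hedgehog and PTHrP list only 3 of 12 genes could be compared. Besides IHH, PTHLH, the gene of parathyroid hormone-related protein, had signals of 74.5 and 28.7 and was at least 2.06-fold lower at day 10, then reached 856 on the day 20 array. SUFU, a cytoplasmic inhibitor of the hedgehog pathway, had signals of 289 and 178. By the probe sets used, IHH and PTHLH, the ligands of the feedback loop, differed in opposite directions between these arrays. The second IHH probe set, however, gave a log2 ratio of only 0.18. The PTHLH signal was low on both arrays, and its ratio was under 2-fold in size (-0.97) after median centring.

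Among 15 measured genes of BMP and TGF-β signalling, 0 were at least 2-fold higher and 2 lower, beside 7.41% and 6.86% of all genes. The median log2 ratio was -0.22. FST, a secreted inhibitor of activins, had signals of 252 and 81.6, 3.09-fold lower, with its second probe set at the floor. The ligand TGFB2 had signals of 3066 and 1448, 2.12-fold lower, and its second probe set gave a log2 ratio of -0.07. The BMP target genes ID1 and ID3 had log2 ratios of -0.49 and 0.49. Among the remaining members TGFB3 and SMAD3 had log2 ratios of -0.91 and -0.84, and the second TGFB3 probe set gave -0.05.

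For WNT signalling 7 of 26 genes were measured, of which 0 were higher and 3 lower. SFRP1, a secreted WNT antagonist, had signals of 201 and 58.8, and FZD4, a WNT receptor, had 369.8 and 158, but the second probe sets of both gave log2 ratios of -0.01 and 0.00. LEF1, a transcription factor through which WNT signals act, had signals of 2408 and 1140 and was 2.11-fold lower. LRP6, a WNT co-receptor, had a log2 ratio of -0.53 by 1 probe set and -1.11 by the other.

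In the FGF and IGF list 14 genes were compared, 0 higher and 3 lower, with 5 of the 14 at the floor on both growth plate arrays. IGFBP6, a binding protein with a preference for IGF2, was lower by both probe sets, with signals of 1753 and 655 by the one used. IGF2 itself had signals of 212 and 81.0, 2.62-fold lower, but a log2 ratio of -0.14 by its second probe set. IGF1R, the receptor, was 2.42-fold lower by 1 probe set and had a log2 ratio of 0.70 by the other. IGFBP5 had signals of 41.3 and 73.6 and a log2 ratio of 0.83. IGFBP6 is the only one of the 3 whose second probe set was also at least 2-fold lower.

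The inflammatory mediators were the pathway list with the lowest median under the floor used. Of 16 measured genes, of 33 listed, 10 were at least 2-fold lower, 8 of them at least 4-fold, and 0 were higher, with a median log2 ratio of -1.93. The median depends on which weakly expressed members are counted, and was -1.13 with the floor at the 25th percentile and -0.30 with no filter. Under both of these the basement membrane list had the lower median, -1.25. Beside CCL2, the neutrophil-attracting chemokine CXCL8 had signals of 550.3 on the native array and 49.8 on the day 10 array, 11.0-fold lower. CXCL2, a related chemokine, had 207 and 34.2 and was at least 5.73-fold lower. VCAM1, an adhesion molecule for leukocytes, had 749 and 107 and was 6.97-fold lower. SOD2, the mitochondrial superoxide dismutase, had 2697 and 542 and was 4.98-fold lower. These genes, and NFKBIA, the inhibitor of NF-κB that NF-κB itself induces (1849 and 383), are known NF-κB targets.

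The prostaglandin E2 pathway was lower at both of its inducible steps. PTGS2, cyclooxygenase-2, had signals of 1540 and 382 and was 4.04-fold lower, and PTGES, the terminal synthase, had 3875 and 844 and was 4.59-fold lower. On the day 20 array they stood at 1216 and 5357, while NFKBIA stood at 387. ICAM1, a second adhesion molecule for leukocytes, was 3.58-fold lower, and CCL4, a macrophage chemokine, 2.19-fold lower. The cytokines IL1B and IL6 gave no such difference: IL1B had signals of 181 and 147 and IL6 had 37.3 and 14.7, near or under the floor.

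Markers of blood cells were weak on both arrays. Of 14 macrophage and monocyte markers on the array, 3 lay above the floor on each growth plate array, and their summed signal was 2914 in native tissue and 1347 at day 10. LGMN, a lysosomal protease that is not restricted to macrophages, accounted for 2638 and 1138 of these sums. The markers CD163, C1QC, TYROBP and PTPRC lay under the floor on both arrays. CD14 had signals of 19.8 and 43.8 and C1QA of 21.0 and 41.8, just above the floor at day 10. AIF1 had 36.9 and 6.64 and CD86 had 44.7 and 35.7, just above it in native tissue. None of 6 neutrophil markers and none of 12 T and B cell markers passed the floor in native tissue, and JCHAIN alone did at day 10. Without LGMN the macrophage markers therefore offered little signal on either array.

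Part of the antigen presentation list was lower as well. Of 12 measured genes, of 20 listed, 6 were at least 2-fold lower and 0 higher, with a median log2 ratio of -1.03. TAP1, a subunit of the peptide transporter of the class I pathway, had signals of 1139 and 164, 6.94-fold lower, with a second probe set at the floor on both arrays. TAPBP, tapasin, which bridges the transporter to class I molecules, had 711 and 219, and PSMB8, a subunit of the immunoproteasome, had 243 and 92.8. The swine leukocyte antigen genes SLA-3 and SLA-2 were 6.74-fold and 2.52-fold lower, with signals of 796 and 118 and of 1829 and 727. These class I genes are closely related in sequence, so their probe sets may share transcripts. B2M, the class I light chain, had signals of 11294 and 10498.

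Interferon response genes, many of which overlap with antigen presentation in function, did not follow. Of 14 measured genes, 0 passed 2-fold in either direction and the median log2 ratio was 0.10. MX1, an antiviral GTPase, had signals of 89.5 and 177 and the highest log2 ratio, 0.99. IRF9, part of the interferon-activated transcription factor, had the lowest, -0.85, with signals of 79.9 and 44.2. IRF1 and GBP1 had log2 ratios of -0.69 and -0.63, the latter with -0.40 by its second probe set.

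Immediate early and heat shock genes, which tissue handling can induce, were measured for 25 of 35 listed genes. At day 10, 9 passed 2-fold downward and 1 upward, with a median log2 ratio of -0.48. IER3, an early gene that limits apoptosis, had signals of 3042 on the native array and 495 on the day 10 array, 6.15-fold lower. The AP-1 component FOSL2 had 809.9 and 143, and the small GTPase GEM had 1333 and 238, 5.67-fold and 5.60-fold lower. FOSL1, JUN and KLF4 were 3.51-fold, 2.29-fold and 2.68-fold lower. FOS itself had signals of 1642 and 1490 and DUSP1 of 2630 and 2988, so that not every early gene was lower. HSPA8, the constitutive HSP70 chaperone, was 3.60-fold higher with signals of 2545 and 9151, but its second probe set gave a log2 ratio of -0.60.

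Several genes that hypoxia induces were lower at day 10, although the culture was kept at 5% oxygen. Of 26 measured genes of glycolysis and hypoxia, of 36 listed, 6 were at least 2-fold lower and 0 higher, with a median log2 ratio of -0.39. SLC2A3, the glucose transporter GLUT3, had signals of 6978 on the native array and 831 on the day 10 array, 8.40-fold lower. ANKRD37, an ankyrin repeat protein induced by hypoxia, had 1636 and 195 and was 8.38-fold lower. ENO2, the neuronal form of enolase, had 299 and 22.0 and was at least 8.28-fold lower. On the day 20 array these 3 genes stood at 6548, 3549 and 1391. ANKRD37 and ENO2 were then above their native signals and SLC2A3 was close to its own.

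ADM, the vasodilator peptide adrenomedullin, had signals of 3097 and 729.7 and was 4.24-fold lower. VEGFA, the main angiogenic factor of hypertrophic cartilage, had 5588 and 1715 and was 3.26-fold lower, with a second probe set -1.05 on the log2 scale. CA9, a carbonic anhydrase at the cell surface, was 2.10-fold lower, and its second probe set gave -1.74. Of the enzymes of the main glycolytic path, ALDOC, GPI and PKM had log2 ratios of -0.76, -0.67 and -0.48, and PFKL had 0.40. Some bright ones were nearly level. GAPDH had signals of 14827 and 15971, LDHA of 15083 and 15684, ENO1 of 12543 and 12288 and PGK1 of 14309 and 12187. Such signals lie in the upper part of the range, which reached 19960 and 20084, and whether ratios are compressed there was not tested. SLC2A1, the other glucose transporter GLUT1, had signals of 3022 and 2326 and a log2 ratio of -0.38. None of GAPDH, LDHA, ENO1, PGK1 and SLC2A1 passed 2-fold.

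Of 9 measured angiogenic factors 4 were at least 2-fold lower and 0 higher. Besides ADM and VEGFA these were ANGPTL4, a lipase inhibitor that hypoxia and fatty acids induce, and SERPINF1, the anti-angiogenic factor PEDF. ANGPTL4 had signals of 534 and 95.0, 5.62-fold lower, and its second probe set gave a log2 ratio of -1.85. SERPINF1 had 735 and 345, 2.13-fold lower. Members that promote and members that restrain vessel growth were both among them.

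Some genes of DNA replication were higher at day 10. Of 23 measured genes of DNA replication and nucleotide supply, of 39 listed, 6 were at least 2-fold higher, 0 lower and 17 under 2-fold, and the median log2 ratio of 0.65 was the highest of the pathway lists with at least 5 measured genes. POLE2, a subunit of DNA polymerase ε, had signals of 45.8 on the native array and 259 on the day 10 array, 5.67-fold higher, and its second probe set gave a log2 ratio of 1.69. PCNA, the sliding clamp, had signals of 466 and 1697 and was 3.65-fold higher. RRM2, the regulated subunit of ribonucleotide reductase, had 1401 and 3051 and was 2.18-fold higher. POLA2, of the primase complex, and FEN1, the flap endonuclease, were 2.15-fold and 2.06-fold higher. Over the mean of its probe sets FEN1 had a log2 ratio of 0.52. MCM5, of the replicative helicase, was 3.01-fold higher with signals of 264 and 795, but had a log2 ratio of 0.19 by its second probe set. On the day 20 array POLE2, PCNA and RRM2 stood at 61.7, 409 and 754.

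Of 21 measured mitotic genes, of 38 listed, 0 were at least 2-fold higher and 4 lower, with a median log2 ratio of -0.05. HMMR, a hyaluronan-binding spindle protein, had signals of 128 and 43.0, 2.97-fold lower. CDC25B, the phosphatase that starts mitosis, had 1250 and 488, and NEK2, a centrosomal kinase, had 1170 and 476, 2.56-fold and 2.46-fold lower. CENPF, of the kinetochore, was 2.02-fold lower. Other mitotic genes had nearly equal signals on the arrays. CCNB1, cyclin B1, had 3984 and 4175, PLK1 had 315 and 336, AURKA had 1121 and 1096 and CDC20 had 1053 and 1371. Of the 21 genes 17 lay under 2-fold. On the day 20 array CCNB1 and CDC20 stood at 1659 and 348.

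Among 11 measured cell cycle inhibitors and p53 targets 0 were higher and 2 lower, beside 7.41% and 6.86% of all genes. CCNG2, an atypical cyclin of non-dividing cells, had signals of 1834 and 604, 3.04-fold lower, and the apoptosis effector BAX was at least 2.10-fold lower with low signals of 75.7 and 30.0. BTG1, an antiproliferative protein, had signals of 9654 and 5019, just under 2-fold. CDKN1A, the inhibitor p21, had 2203 and 3107 and a log2 ratio of 0.50.

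Some actin-associated genes of the contractile cytoskeleton were higher. Of 22 measured genes, of 27 listed, 4 were at least 2-fold higher and 0 lower, with a median log2 ratio of 0.30. After TAGLN these were CNN1, the smooth muscle protein calponin, and the actin-linked adaptors PDLIM1 and PDLIM7. CNN1 had signals of 42.5 and 157, 3.69-fold higher, from a native signal so low that the log2 ratio was 0.21 with the floor at the 60th percentile. PDLIM1 had 197 and 699 and PDLIM7 had 136 and 465, 3.55-fold and 3.42-fold higher. On the day 20 array TAGLN, CNN1 and PDLIM1 were higher still, at 6398, 561 and 2566. ACTA2, smooth muscle actin, was already bright in native tissue, with signals of 11456 and 14481. ACTG2, the enteric form, had equal signals by 1 probe set (log2 ratio -0.02) and a log2 ratio of 3.26 by its second.

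Of the 8 pericyte and smooth muscle markers on the array, 4 passed the floor in native tissue and 6 at day 10, and their summed signal was 13341 and 18654. ACTA2, CNN1 and TAGLN belong to both lists. DES, the muscle intermediate filament desmin, had signals of 29.9 and 127, while RGS5 and MCAM, which mark vessel walls, stayed under the floor. PDGFRB, the receptor of mesenchymal and mural cells, was 3.33-fold lower with signals of 1014 and 305, but its second probe set gave a log2 ratio of 1.4. The part of other cell types in the contractile signals was not tested.

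Genes of the fibroblastic matrix, some of which chondrocytes in culture are known to switch on, were not higher as a group at day 10. The list also holds genes that were already bright in native tissue, such as COL6A2, COL6A3 and FN1. Its counts and median therefore do not bear only on genes that culture switches on. Of 22 measured genes, of 31 listed, 1 was at least 2-fold higher and 5 lower, with a median log2 ratio of -0.52. COL1A2, a chain of collagen I, had signals of 432 on the native array and 381 on the day 10 array, and 2343 on the day 20 array. The log2 ratio of COL1A2 at day 10 was -0.18, and 0.22 by its second probe set. COL3A1, collagen III, had 262 and 129, 2.03-fold lower, and 406 on the day 20 array. The collagen VI chains COL6A2 and COL6A3 were 4.96-fold and 2.67-fold lower, with signals of 4356 and 879 and of 11044 and 4144. THBS2, an anti-angiogenic matrix protein, had 1903 and 515 and S100A4, a calcium-binding protein of motile cells, had 4953 and 1368. COL5A2, a collagen V chain, was at least 3.29-fold higher, but from a native signal under the floor and with a log2 ratio of 0.02 by its second probe set. FN1, fibronectin, had 17028 and 16133 by the probe set used and a log2 ratio of -1.89 by its second.

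The basement membrane list had 5 measured genes of 12 listed, of which 4 were at least 2-fold lower, with a median log2 ratio of -1.25. LAMB1, a laminin chain, had signals of 2910 and 885 and was lower by both probe sets, with log2 ratios of -1.72 and -1.39. NID2, which links laminin to collagen IV, had 3756 and 1576. COL15A1, a collagen at the edge of basement membranes, had 4779 and 2067, and the collagen IV chain COL4A2 had 89.9 and 11.7. These genes are also part of the matrix around each chondrocyte. LAMC1, the other laminin chain measured, had 2811 and 2554 by the probe set used and a log2 ratio of -1.05 by its second.

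Endothelial cells also make basement membrane, and their markers were weak and mixed. CDH5, VWF, KDR and TEK lay under the floor on both arrays, with native signals of 14.2, 23.4, 3.90 and 10.8. PECAM1, ENG, EGFL7, CD34 and ACE lay above it on both, with signals of 67.2 and 52.9 for PECAM1 and 141 and 75.4 for ENG. ESAM, an endothelial adhesion molecule, had 89.3 and 206 and was 2.31-fold higher, but its second probe set gave a log2 ratio of -0.47. In all, 7 of 15 endothelial markers passed the floor in native tissue and 6 at day 10, and their summed signal was 816 and 885.

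Among matrix proteases and their inhibitors 15 of 28 genes were measured. Of these 1 was at least 2-fold higher, MMP13, and 3 lower, beside 7.41% and 6.86% of all genes. MMP1, the interstitial collagenase, had signals of 161 and 29.9, at least 4.45-fold lower, and MMP2, gelatinase A, had 4381 and 1606, 2.73-fold lower. CTSK, the collagen-degrading cathepsin K, had 14768 and 6548, 2.26-fold lower. The collagenases MMP13 and MMP1 therefore differed in opposite directions. CTSK supplied most of the summed signal of 7 osteoclast markers, 15227 in native tissue and 6901 at day 10. ACP5, the osteoclast phosphatase, had 63.5 and 26.3, and CALCR and ATP6V0D2 lay under the floor on both arrays. The part of osteoclasts in the CTSK signal was not tested.

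Among 12 measured adhesion receptors only ITGA8, the α8 integrin chain, passed 2-fold, beside 7.41% of all genes higher and 6.86% lower. It was 2.55-fold higher, with signals of 66.9 and 171 and a log2 ratio of 1.89 by its second probe set. CD9, a tetraspanin, had signals of 6530 and 3304 and ITGAV, the αV integrin chain, had 3778 and 2056, both under 2-fold. SDC1, a syndecan, had log2 ratios of -0.90 and -0.76. ITGB1, the common β1 chain, had 9732 and 10023.

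The lists of the respiratory chain and the proteasome had positive medians, but few of their genes passed 2-fold. Of 56 measured genes of the mitochondrial respiratory chain 6 were at least 2-fold higher and 1 lower, with a median log2 ratio of 0.41. These counts are near the background of all genes, 7.41% of which were at least 2-fold higher. Complex I subunits led them. NDUFS6 had signals of 123 and 506, with a second probe set at the floor, NDUFA5 had 616 and 1469 and NDUFA4 had 3703 and 7682. ATP5I, a small subunit of ATP synthase, was the exception at 779.9 and 203, 3.85-fold lower, and its second probe set lay at the floor. Of 33 proteasome genes 1 passed 2-fold, a share below that background, PSMB3 with 253 and 647, and the median log2 ratio was 0.36. PSME3, the nuclear proteasome activator, had 328 and 625. Ribosomal protein genes were level: 0 of 57 passed 2-fold and the median was -0.03.

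Sterol and fatty acid synthesis had 18 measured genes, with 3 at least 2-fold higher, 0 lower and a median log2 ratio of 0.44. FDPS, the synthase of farnesyl diphosphate, had signals of 999 on the native array and 2122 on the day 10 array, and 389.8 on the day 20 array. HSD17B7, a late enzyme of cholesterol synthesis, had 87.5 and 185. ACSS2, which activates acetate, had 111 and 224 and a log2 ratio of 0.65 by its second probe set. HMGCS1, an early enzyme of the same pathway, had 1209 and 2285, under 2-fold. NPC1, which exports cholesterol from lysosomes, was 2.93-fold higher, and its partner NPC2 was 2.14-fold lower with a log2 ratio of -0.44 by its second probe set. In the lysosome and autophagy list as a whole, 1 of 21 genes was higher and 2 lower, beside 7.41% and 6.86% of all genes. The other lower one was CTSS, a cathepsin of antigen-presenting cells, with signals of 831 and 392. Its second probe set gave a log2 ratio of -0.92.

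Lipid uptake and storage had 2 genes higher and 4 lower of 14 measured, beside 7.41% and 6.86% of all genes. LPL, lipoprotein lipase, had signals of 1361 and 403, 3.38-fold lower, and its second probe set gave a log2 ratio of -1.49. With ANGPTL4, its inhibitor, it was thus lower by both probe sets. ABCA1, which exports cholesterol to lipoproteins, had 569 and 201, and ACSL1, which activates long-chain fatty acids, had 1630 and 730.0. CPT1A, the gate for fatty acids into mitochondria, had 389 and 926, 2.38-fold higher, and FABP3, a cytosolic fatty acid carrier, was 2.02-fold higher. Of 8 adipocyte markers 2 passed the floor in native tissue and 1 at day 10, with summed signals of 1519 and 529, mostly from LPL.

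Redox and metal buffering genes were measured for 27 of 36, with 1 higher and 3 lower, beside 7.41% and 6.86% of all genes. The metallothioneins MT-2B and MT1A, which bind zinc and copper, had signals of 2348 and 442 and of 82.8 and 28.8, 5.31-fold and at least 2.29-fold lower. The members are close copies of each other, so their probe sets may share transcripts. SLC39A14, a zinc importer, was 2.66-fold lower by the probe set used, with a second log2 ratio of -1.12. GPX3, the secreted glutathione peroxidase, was 2.15-fold higher with signals of 119 and 256. The third lower gene was SOD2, described above.

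Beside 7.41% of all genes higher and 6.86% lower, 1 of 21 solute carriers was higher and 4 lower. Besides SLC2A3 and SLC39A14 these were SLC2A5, the fructose transporter, at 6221 and 2410, and SLC29A1, a nucleoside transporter, at 93.7 and 32.6. SLC2A8, an intracellular glucose transporter, was 2.25-fold higher. The hexose transporters therefore did not move as a group.

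In the unfolded protein and amino acid response, 2 of 18 genes were higher and 1 lower, beside 7.41% and 6.86% of all genes. SDF2L1 and MANF, which are induced by stress of the endoplasmic reticulum, had signals of 69.8 and 213 and of 2615 and 5341. DNAJB9, a chaperone of the same compartment, was 2.12-fold lower, with a log2 ratio of -0.90 by its second probe set. ATF4, the transcription factor of the amino acid response, had 9184 and 4994, under 2-fold, with a log2 ratio of -0.44 by its second probe set. HSPA5, the main chaperone of the compartment, had 11580 and 9157.

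For collagen folding and secretion, 29 genes were measured, 2 higher and 2 lower, with a median log2 ratio of -0.35. These counts are near the background of all genes, 7.41% higher and 6.86% lower. CRTAP, a subunit of the collagen prolyl 3-hydroxylase complex, had signals of 4669 and 1786, 2.61-fold lower. CALR, the chaperone calreticulin, had 262 and 571, 2.18-fold higher. SAR1A and SEC61A1, of vesicle export and protein import, passed 2-fold by 1 probe set, with ratios of -1.25 and 1.30 on the log2 scale, and not by the second, with 0.23 and -0.05.

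**Figure D4:**
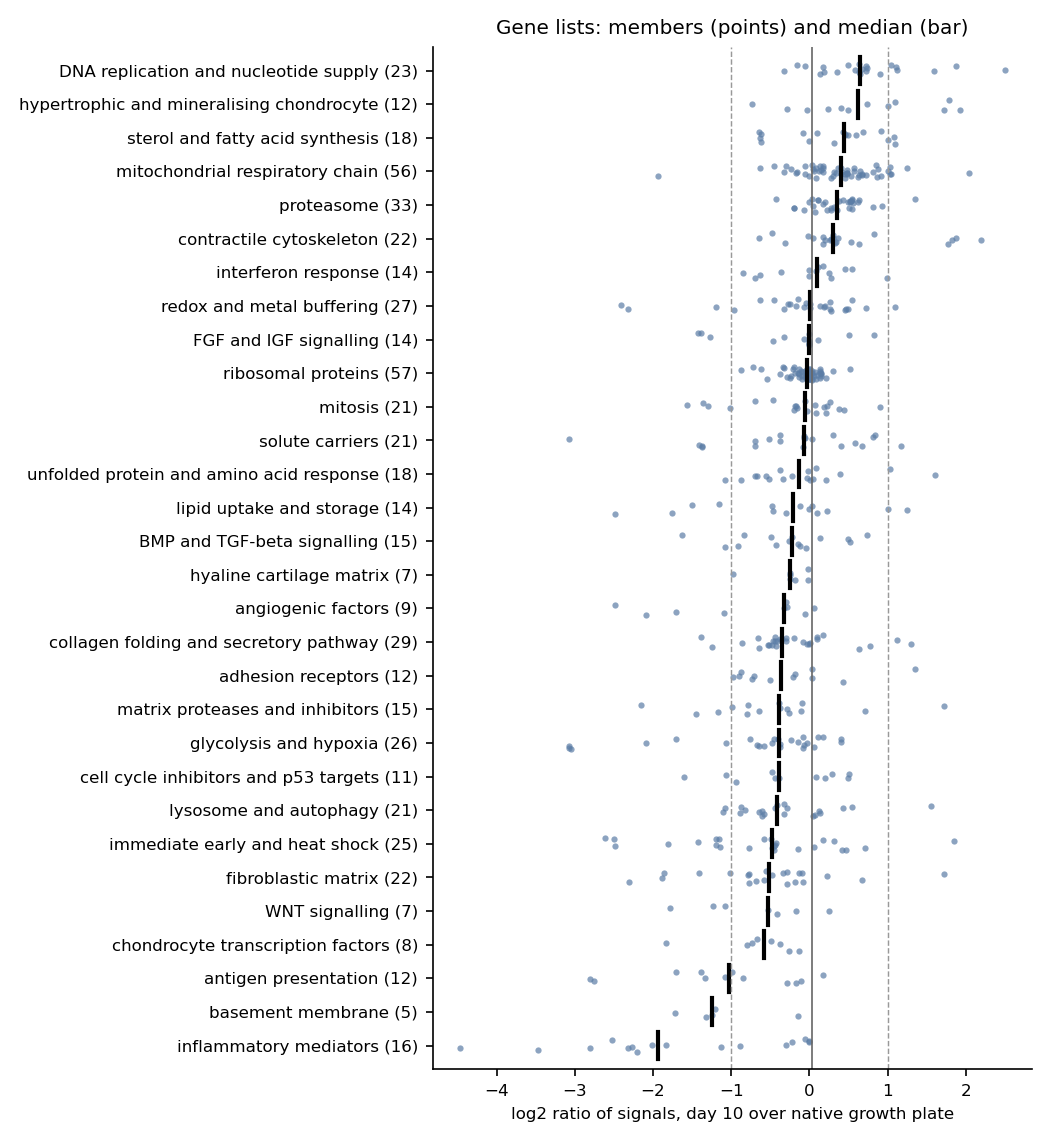
Log2 ratio of signals, day 10 over native growth plate, for the members of each pathway list with at least 5 measured genes. Each point is 1 gene, the thick bar is the median of the list, the number in brackets is how many genes were measured, the solid vertical line is the median of all genes (0.03) and the dashed lines mark 2-fold. The medians run from -1.93 for inflammatory mediators to 0.65 for DNA replication and nucleotide supply.

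Markers of the remaining cell types were set beside these results. Of 6 erythroid markers HBB alone passed the floor on both arrays, with signals of 234 and 426. Of 12 skeletal muscle markers 1 passed in native tissue and 2 at day 10, with summed signals of 208 and 441. MYL1 alone supplied 75.1 and 279.7 of these sums. The 6 perichondrium and tendon markers on the array had summed signals of 7289 and 3811, with 3 above the floor on each. Among them THY1, a surface protein of mesenchymal cells, was 2.27-fold lower, with signals of 6583 and 2894. The 7 osteoblast and osteocyte markers had summed signals of 1308 and 1695. Most of these came from DLX5 (746 and 1164) and COL1A2 (432 and 381). The 5 nerve markers had summed signals of 2332 and 1323, of which S100B alone supplied 2193 and 1166. The part of these cell types in the signals was not tested.

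The articular arrays gave the comparison of the same kind that shares no array with the growth plate pair. Articular chondrocytes at day 10 had 897 genes (16.0%) at least 2-fold higher than native articular cartilage and 535 (9.56%) at least 2-fold lower. The native articular array was the least like the others, with a mean correlation of 0.890 against 0.930 to 0.939 for the other arrays, and this bears on every articular ratio. Centring each array on its median signal moved the articular median of all genes from 0.05 to -0.11 and gave 699 genes higher and 788 lower. Of the 415 genes higher in growth plate culture 179 (43.1%) were also at least 2-fold higher in the articular pair, which is 20.0% of the articular genes, and 4 were at least 2-fold lower there. Of the 384 lower genes 142 (37.0%, or 26.5% of the articular genes) were also lower and 43 were higher. The log2 ratios of the pairs had a Pearson r of 0.40 across the 5598 genes; genes are not independent samples.

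Of the growth plate genes past 4-fold, 16 of the 24 higher (66.7%) and 34 of the 55 lower (61.8%) were at least 2-fold the same way in the articular pair. CHI3L1 had articular signals of 15448 and 1193, CXCL8 of 3084 and 34.8 and NFKBIA of 10273 and 595. POLE2, PCNA and MAT2A had articular log2 ratios of 2.76, 3.07 and 2.45, beside 2.50, 1.87 and 2.26 in the growth plate. The median of the inflammatory list was -1.37 in the articular pair and that of DNA replication 0.73.

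Other groups differed between the tissues in these single arrays. The mitotic list had a median log2 ratio of -0.05 in the growth plate pair and 1.97 in the articular pair, where 16 of the 21 genes were at least 2-fold higher. CCNB1 shows the difference in starting level: its articular signals were 122 and 4877, against 3984 and 4175 in the growth plate. The hypertrophic genes COL10A1, ALPL and MMP13 lay under or near the floor on the native and day 10 articular arrays, with native signals of 4.51, 24.2 and 39.8. Other members of that list were higher in the articular pair, where 4 genes passed 2-fold upward and 0 downward with a median of 0.18. These were the transcription factor FOXA2 (a log2 ratio of at least 3.47), IBSP (2.54), PTH1R (1.89) and ENPP1, which makes pyrophosphate (1.03), and each of them was under 2-fold in the growth plate. SOX9 had articular signals of 982 and 81.0, a log2 ratio of -3.60 against -0.49 in the growth plate. SLC2A3 had 1399 and 1206 in the articular pair, against 6978 and 831 in the growth plate. The glycolysis and hypoxia list had a median of 0.30 in the articular pair and -0.39 in the growth plate (0.09 in the articular pair after median centring), although ADM and VEGFA were lower in both, with articular log2 ratios of -2.53 and -1.97. None of these differences between tissues could be tested.

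**Figure D5:**
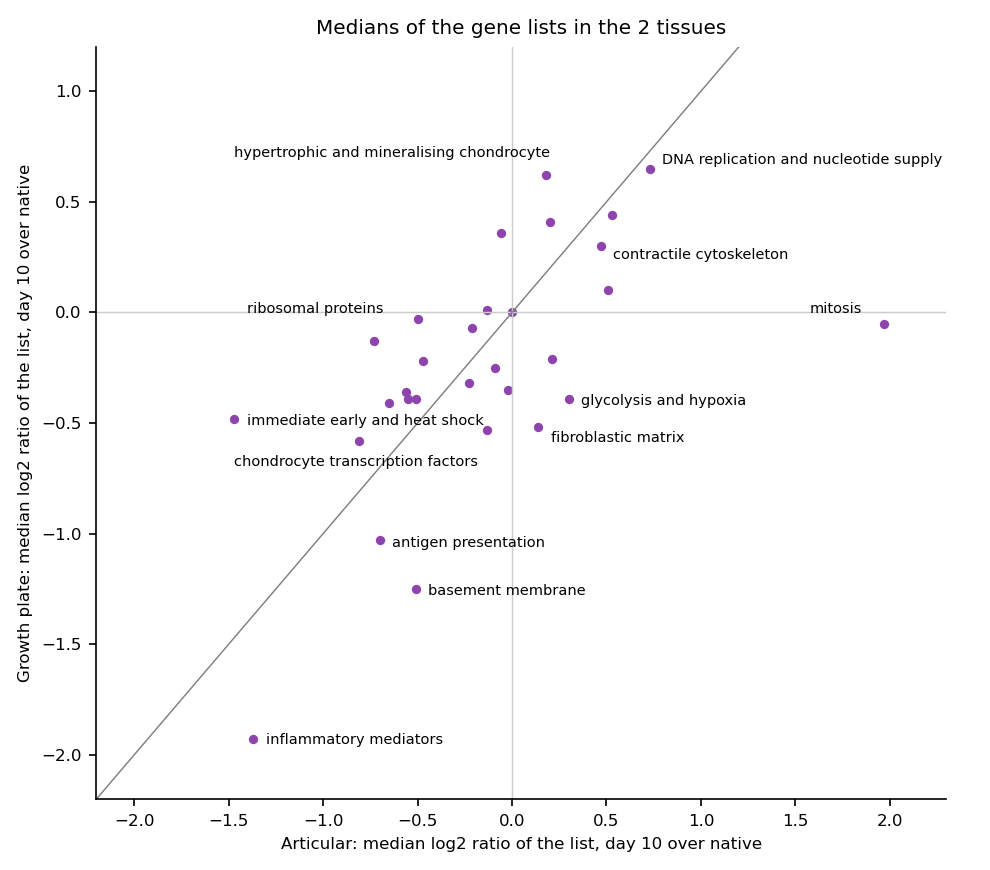
Median log2 ratio of each pathway list with at least 5 measured genes, day 10 over native, in articular chondrocytes (horizontal axis) and in growth plate chondrocytes (vertical axis). The diagonal marks equal medians. The inflammatory list is low in both tissues and DNA replication high in both, while mitosis lies at 1.97 in the articular pair and -0.05 in the growth plate pair.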

How the data were processed

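The authors deposited linear signal intensities per probe set for 6 arrays, which came from GCOS 1.4, per the submitters' processing notes. Scaling settings, probe-level method and detection calls are not given in the sources used here. Per the labels, Trizol and an RNeasy kit were used for extraction, and 100 ng of RNA entered the Two-Cycle biotin labelling. The intensities were used without further normalization.

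Of 24123 probe sets 124 controls were left out. The floor of 36.1 was the 40th percentile of all other signals. The platform annotation gave 1 symbol to 10069 probe sets, several to 198 and none to 13732; 9961 of those with 1 symbol matched the RefSeq gene table, used for names only. Of several probe sets for a gene, the one brightest on average (mean log2 signal, 6 arrays) was used, and a gene had to pass the floor on at least 2 arrays. Log2 ratios were computed with Python 3.11.15, pandas 2.3.3 and numpy 2.4.6 and drawn with matplotlib 3.10.9, and the calculation was tested on simulated data. The simulated folds were put only on genes far above the floor, alike on all probe sets of a gene. That check therefore covers the arithmetic, and neither the treatment of low signals nor the choice of probe set. With 1 array per condition there was no test, and fold rules of 4 and 2 stand in.

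The 31 gene lists and 12 marker lists were written from general knowledge, and the comparison, members and lists were chosen with earlier results of these data known. Genes were named by rule: the 15 each way with the largest ratio, the 8 each way with the largest ratio among genes above the floor on both arrays, up to 4 members per list with the largest absolute ratio, and 9 cartilage genes. Further list members, and genes of the closing section, were picked once their values had been seen. Alternatives comprised median centring, quantile normalization, floors at the 25th and 60th percentile, a pseudocount, other filters and other choices of probe set. Promoter sequences were not used here.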

Additional observations from a re-analysis of the deposited data

Results flagged for a closer look

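Among the genes named, 17 were at least 2-fold apart between native tissue and day 10 in opposite directions in growth plate and articular chondrocytes. Over all 5598 genes, 43 were at least 2-fold lower in the growth plate and higher in the articular pair, and 4 the reverse. By the same rule, 179 were higher in both pairs and 142 lower in both. The genes named were partly picked after their values were seen. Each tissue gave 1 array per condition, so the difference was not tested, and the native articular array is the one least like the others. The log2 ratio of day 10 over native is given for the growth plate first and the articular pair second.

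Mitotic genes lower in the growth plate and higher in the articular pair were HMMR (-1.57 and 1.57), CDC25B (-1.36 and 1.57), NEK2 (-1.30 and 3.58) and CENPF (-1.01 and 1.97). For NEK2 the native signals were 1170 in the growth plate and 50.6 in articular cartilage, and the day 10 signals 476 and 606. Over the mean of its probe sets NEK2 had a growth plate log2 ratio of -0.86, under 2-fold.

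Matrix and mesenchymal genes with the same pattern were THBS2 (-1.89 and 4.09), S100A4 (-1.86 and 1.72), COL3A1 (-1.02 and 1.43), THY1 (-1.19 and 2.03) and SERPINF1 (-1.09 and 1.48). Native THBS2 signals were 1903 and 154. Over the mean of its probe sets THY1 had a growth plate log2 ratio of -0.75, under 2-fold.

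Signalling genes were PTHLH (-1.04 and 1.4), FST (-1.63 and 1.23), LEF1 (-1.08 and 2.31) and IGFBP6 (-1.42 and 1.29). Over the mean of its probe sets FST had a growth plate log2 ratio of -0.81, under 2-fold. Metabolic and other genes were SLC2A5 (-1.37 and 6.47), ANKRD37 (-3.07 and 2.08) and CYP26A1 (-2.02 and 1.85). NPC1 alone of the 17 was higher in the growth plate and lower in the articular pair (1.55 and -1.01). For PTHLH in both pairs, and for LEF1, HMMR and CYP26A1 in the articular pair, the lower array lay under the floor. The ratio of the deposited signals is there larger in size than the value given, but such low signals have no detection calls. Other treatments of low signals gave a smaller growth plate log2 ratio for PTHLH, -0.77 with the pseudocount and 0.0 with the floor at the 60th percentile. Under quantile normalization and under median centring, 16 of the 17 kept opposite directions past 2-fold, the exception being PTHLH.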

How the results depend on the processing

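The 24 genes at least 4-fold higher at day 10 became 43 with the floor at the 25th percentile, 9 with it at the 60th and 8 with a pseudocount in place of the floor. The 55 at least 4-fold lower became 30 with the floor at the 60th percentile and 31 with the pseudocount, and the 384 at least 2-fold lower became 250 with the floor at the 60th percentile. The other 34 counts of growth plate genes, under these and the remaining alternatives, lay within 1.5 times those reported. No named gene past 2-fold changed sign under the alternatives that give 1 value per gene. Single genes were not compared under the use of every probe set. Second probe sets of some genes past 2-fold, such as HSPA8, PDGFRB, IGF1R and ESAM, had the opposite sign. Named genes past 2-fold that dropped under it numbered 27 with all probe sets averaged and 22 with the floor at the 60th percentile. The 204 and 183 named genes with a value under these settings include genes that were never past 2-fold. The number that dropped was 17 with the pseudocount, 3 with quantile normalization and 2 with median centring. The median of the fibroblastic matrix was -0.34 with the mean of probe sets, and that of collagen folding and secretion -0.12 with every probe set; the cause was not tested. Low signals, with no detection calls, limit what can be said of genes near the floor. Leaving out an array was not possible with 1 array per condition. No paired analysis was possible because each condition has 1 array and the comparison comes from no test.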

Other observations

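The following genes past 4-fold, which no list held, were picked after their values were seen, and they stand for no group. All were lower at day 10. TNFRSF1B, a receptor for tumour necrosis factor, had signals of 292 and 64.0, IL18BP, the decoy that binds interleukin-18, had 666 and 120.3, and SOCS1, an inhibitor of cytokine signalling, had 184 and 39.5, although the second SOCS1 probe set gave a log2 ratio of 0.17. PDE4B, a cyclic AMP phosphodiesterase, had 717 and 164, and ALOX5AP, which leukotriene synthesis requires, had 825 and 188. C9, of the terminal complement complex, had 256 and 58.6, with its second probe set at the floor on both arrays. With the floor at the 60th percentile the log2 ratios of C9, SOCS1 and TNFRSF1B were -0.91, -0.44 and -1.10. CYP26A1, the enzyme that breaks down retinoic acid, had 640.5 and 158 and reached 2792 on the day 20 array.

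Just outside 4-fold upward lay PEG10, an imprinted gene derived from a retrotransposon, with signals of 841 and 3353, a second probe set at the floor on both arrays and a log2 ratio of 0.66 over the mean of its probe sets. Also there was EPHX1, microsomal epoxide hydrolase, with 468 and 1803. TMEM158, a membrane protein induced by Ras, had 115 and 447 and 5052 on the day 20 array. Among 8062 probe sets above the floor on at least 2 arrays that carry no single gene symbol, 52 were at least 4-fold higher at day 10 and 93 at least 4-fold lower.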
